A study of Mus musculus with 2 samples.

Results

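Enteroendocrine cells are scattered hormone-secreting cells of the gut epithelium. They arise from crypt progenitors of the secretory lineage under basic helix-loop-helix factors, package peptides and amines into dense-core granules and release them when nutrients or microbial products reach their sensors. In the colon, L cells make peptide YY, the products of proglucagon and insulin-like peptide 5, D cells make somatostatin, and enterochromaffin cells make serotonin. The 10 genes described here belong to these cells, out of 40879 gene symbols in the count tables. They were found by symbol, and all 10 were present. Insl5 was chosen by its difference between these libraries, and the others were listed beside it as hormone, granule, amine and fate genes of the same cells with earlier results of the data known, so their differences are descriptions without a test.

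The study compared the intestine of ERAP1 wild type (WT) mice and of mice heterozygous for ERAP1 (ERAP1+/-). ERAP1 is an aminopeptidase of the endoplasmic reticulum that trims peptides for MHC class I. The ERAP1+/- mice descend from 1 embryonic stem cell clone with the tm1a allele, crossed with a Cre strain whose promoter the methods do not name, to delete a pair of exons flanked by loxP sites. Both genotypes were on the C57BL/6 background and were 8 weeks old at the start of the study, and the methods call them germ-free as well as housed under specific pathogen-free conditions. The study describes the sequenced mice as being at steady state, and the labels name no treatment. RNA of 3 mice per genotype was pooled into 1 library each, so no difference has a replicate check and the spread between mice is unknown. The labels give the tissue as intestine, and the study describes the sequenced tissue as colon without naming a part of it.

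Depth was similar, at 8114826 reads for WT and 8907515 for ERAP1+/-. Levels are given as CPM, reads scaled to a common library size after TMM adjustment, a trimmed-mean normalization. Differences are on the log2(CPM + 1) scale, ERAP1+/- minus WT, on which differences of genes with few reads come out smaller than their ratios. Intervals are exact 95% intervals and cover counting error only. For Erap1 itself, 229 WT reads stood against 2 in the library labelled ERAP1+/-. A heterozygote keeps an intact copy of the gene, so a count this near to 0 goes against that label as it stands, and whether the 3′ reads fall on the deleted exons is not known from the counts. The name ERAP1+/- library below means the library so labelled. Markers of skin and skeletal muscle were far lower in the ERAP1+/- library, with 15492 against 257 reads over 6 epidermal genes and 9931 against 218 reads over 13 muscle genes. Xist had 1635 and 6451 reads and the Y-linked Ddx3y 319 and 29, and sex and genotype cannot be told apart with these libraries. The part of these differences in the results was not tested.

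Sequence before the start sites of several of the genes is shown because the genes differed in the same direction and hormone promoters of this kind are known for short shared motifs. For all 10 genes RefSeq (GRCm38.p6) gave a window, and the 250 bases before the start site nearest to the annotated gene start were searched on both strands. Only bases outside annotated exons of the gene are printed, 5′ to 3′ on the strand of the gene, and capitals mark matches to the motifs searched, apart from the shorter TGACG, which is left in lower case. The marked motifs were CAGATG as well as CAGCTG, which are E-boxes, the class of site that Neurod1 and its relatives bind, the TATA box TATAAA, the GC box with GGGCGG and the palindrome TGACGTCA. The first comes from chr4:103026843-103026978, minus strand, the second from chr2:62483654-62483903, minus strand, and the third from chr12:102554691-102554940, plus strand.
Insl5: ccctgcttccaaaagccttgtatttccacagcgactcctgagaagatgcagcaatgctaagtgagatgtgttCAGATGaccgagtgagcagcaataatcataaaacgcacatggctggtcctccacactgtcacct
Gcg: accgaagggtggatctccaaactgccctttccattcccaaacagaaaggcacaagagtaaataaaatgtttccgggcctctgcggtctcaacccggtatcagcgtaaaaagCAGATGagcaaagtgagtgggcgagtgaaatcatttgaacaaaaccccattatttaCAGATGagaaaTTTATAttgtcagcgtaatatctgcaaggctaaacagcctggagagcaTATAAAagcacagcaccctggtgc
Chga: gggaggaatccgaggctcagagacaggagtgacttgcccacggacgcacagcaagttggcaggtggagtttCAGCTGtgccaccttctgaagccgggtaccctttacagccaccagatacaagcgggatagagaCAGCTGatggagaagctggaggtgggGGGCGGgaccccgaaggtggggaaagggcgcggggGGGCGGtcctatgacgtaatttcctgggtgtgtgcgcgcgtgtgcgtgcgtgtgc

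The L-cell genes Insl5 and Gcg share CAGATG, once before Insl5 and at a pair of places before Gcg, and Cck was the other gene with it. It was present in 3 of the 10 windows and in 14.4% of all 32851 windows. Chga and Nts held CAGCTG, which 13.0% of all windows held. TATAAA was found before Insl5 and Gcg and in 12.4% of all windows. GGGCGG was found before Chga, Chgb and Neurod1 and in 32.7% of all windows.

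The palindrome TGACGTCA, the cAMP response element described in textbooks for the somatostatin promoter, was present before Sst and Chgb and in 1.55% of all windows. Both matches, and the TATAAA of Insl5, lie inside exons of longer annotated transcripts, so 30 bases around each are given, from chr16:23890874-23890903, minus strand, for Sst, from chr2:132781559-132781588, plus strand, for Chgb, and from chr4:103026760-103026789, minus strand, for Insl5.
Sst: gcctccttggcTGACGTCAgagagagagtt
Chgb: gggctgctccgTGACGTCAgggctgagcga
Insl5: cagaggggttggTATAAAtggtccaagagg

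The shorter TGACG, which is part of that palindrome, was found before 6 genes, Sst, Cck, Nts, Chga, Chgb and Tph1, and in 17.8% of all windows. It was not among the matches before Insl5, Gcg or Pyy. These matches are descriptions of letters.

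All 10 genes had a higher level in ERAP1+/- than in WT, under each scaling tried except that to goblet markers, where Cck was lower. Of the 16142 genes with at least 10 reads over both libraries, 50.3% were higher in the ERAP1+/- library. For 9 of the 10, all but Cck, the counting interval of the ratio lay above 1, as it did for 20.6% of those 16142 genes. The median log2 difference was 1.14 over the 10 genes and 1.09 over the 9 without Insl5, against 0.0020 over the 16142 genes. Summed over the 10 genes, there were 2462 WT reads and 7600 ERAP1+/- reads, a TMM-scaled ratio of 2.58 (95% interval 2.46 to 2.70).

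**Figure D1:**
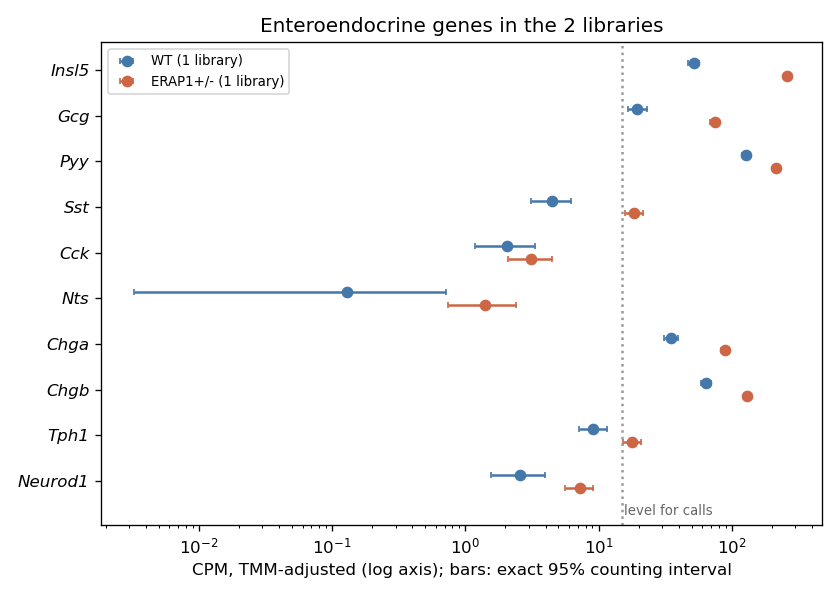
Levels of the 10 genes in the WT (blue) and ERAP1+/- (orange) libraries, as TMM-adjusted CPM on a log axis, with exact 95% counting intervals as bars. The dotted line is at 15 CPM, the level a gene had to reach in 1 or both libraries to be called. Each gene sits further right in the ERAP1+/- library, and Cck and Nts are the genes with the fewest reads.

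A gene was called where it reached a log2(CPM + 1) of 4, which is 15 CPM, in 1 or both libraries and differed by more than 2-fold on that scale. Of the 10 genes, 7 reached the level and 5 of these were called, Insl5, Gcg, Sst, Chga and Chgb, all of them higher in the ERAP1+/- library. Over all 8013 genes past the level, 5.34% were called in either direction and 1.39% were called as higher. Cck, Nts and Neurod1 did not reach the level, and Sst and Tph1 reached it in the ERAP1+/- library alone. Nearest to the threshold were Chgb, called with a log2 difference of 1.01, and Tph1, not called with 0.90. The number called depended on the scaling of the libraries and reached 7 when they were scaled to gut epithelium genes and 2 when they were scaled to goblet cell markers. The number over all genes moved in the same direction. Genes called as higher numbered 111 under TMM, 304 with the epithelium scaling and 23 with the goblet scaling.

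Insl5 encodes insulin-like peptide 5, a relaxin-family hormone of colonic and rectal L cells. On the GRCm38 build it occupies chromosome 4 from 103017872 to 103026842, and its transcript Insl5-201 has 2 exons. WT had 403 reads, or 51.9 CPM (95% interval 46.9 to 57.2), and ERAP1+/- had 2415, or 260 CPM (249 to 270.2). The ERAP1+/- level was 5.01 times the WT level (95% interval 4.50 to 5.58), a log2 difference of 2.30. This was the 10th largest of the 111 genes called as higher.

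Gcg encodes proglucagon, from which L cells cut glucagon-like peptides. It lies on chromosome 2 from 62474530 to 62483650. Reads numbered 152 for WT (19.6 CPM) and 695 for ERAP1+/- (74.7 CPM), and the ratio was 3.82 (95% interval 3.20 to 4.58). By log2 difference, 1.88, it was 19th among the genes called as higher.

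Pyy encodes peptide YY, which L cells release along with the glucagon-like peptides. It lies on chromosome 11 from 102106676 to 102107832. Reads numbered 995 for WT and 2007 for ERAP1+/-, which is 128 and 216 CPM. Its ratio of 1.68 (95% interval 1.56 to 1.82) lay below 2, and it was not called. Among the L-cell hormones, Insl5 and Gcg were past the threshold and Pyy was short of it.

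Sst encodes somatostatin, the inhibitory peptide of D cells, which some enteric neurons make as well. It lies on chromosome 16 from 23889573 to 23890958. Reads numbered 35 for WT (4.50 CPM) and 173 for ERAP1+/- (18.6 CPM), with a ratio of 4.13 (95% interval 2.86 to 6.12). It passed the level of 15 CPM in the ERAP1+/- library alone.

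Cck and Nts, hormones mainly of the small intestine, had few reads in either library. Cck, the cholecystokinin gene of I cells (chromosome 9, 121489824 to 121495694), had 16 and 29 reads, and the interval of its ratio, 0.796 to 2.98, includes 1. Nts, the neurotensin gene of N cells (chromosome 10, 102481756 to 102490486), had 1 WT read and 13 ERAP1+/- reads, so that its ratio of 10.9 carries an interval of 1.63 to 461. For Cck, no difference was detectable at this depth.

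The granins Chga and Chgb encode chromogranins, acidic proteins of the dense-core granule that nearly all enteroendocrine cells and many neurons contain. Chga, on chromosome 12 from 102554969 to 102565028, was read 271 times for WT and 822 times for ERAP1+/-, at 34.9 and 88.4 CPM, with a ratio of 2.53 (95% interval 2.21 to 2.92). For Chgb, on chromosome 2 from 132781278 to 132795079, the values were 498 and 1212 reads, 64.1 and 130.3 CPM, and a ratio of 2.03 (95% interval 1.83 to 2.26). The interval of Chgb spans 2, the threshold for a call.

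Tph1 encodes the rate-limiting enzyme of serotonin synthesis in enterochromaffin cells and is also used by mast cells. It lies on chromosome 7 from 46644641 to 46672537 with 71 WT and 167 ERAP1+/- reads, 9.14 and 18.0 CPM, and a ratio of 1.96 (95% interval 1.48 to 2.63). Neurod1, a basic helix-loop-helix factor of enteroendocrine differentiation, lies on chromosome 2 from 79452521 to 79456751 with 20 WT and 67 ERAP1+/- reads and a ratio of 2.80 (95% interval 1.68 to 4.87). Neurod1 was the only gene of the 10 that overlaps another annotated gene on the same strand, Cerkl, which had 6 reads in each library.

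**Figure D2:**
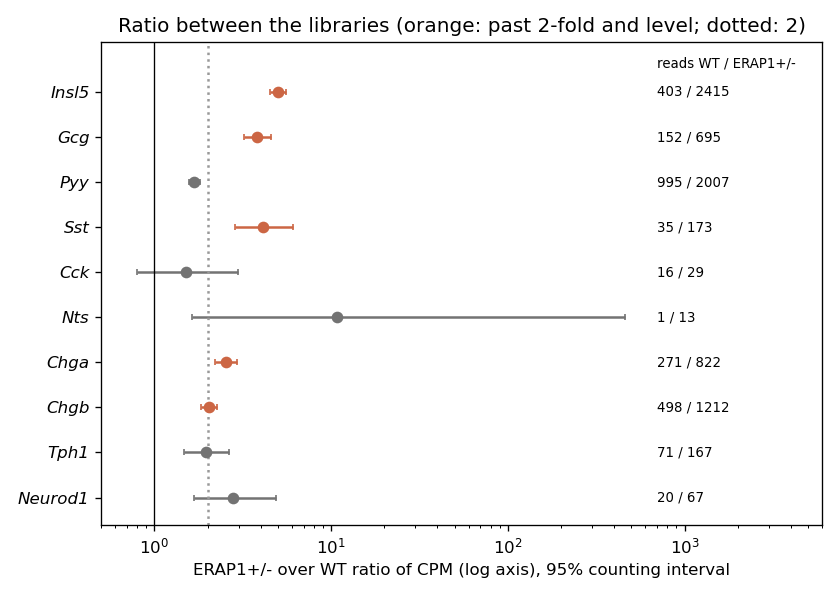
Ratio of TMM-scaled reads, ERAP1+/- over WT, for each of the 10 genes on a log axis, with exact 95% counting intervals and the reads of both libraries at the right. Orange points passed 2-fold and the level of 15 CPM, and the dotted line is at a ratio of 2. Insl5 has the highest ratio among the called genes, 5.01, and the interval of Cck includes 1.

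Ratios between genes inside a library do not depend on how the libraries are scaled, so 11 pairs of the 10 genes were compared in this way. They are ratios of reads, not of levels per length. Insl5 was chosen for its difference between these libraries and the other genes were listed with results known, so an excess of Insl5 over its partners restates that choice and the odds ratios are descriptions. Per 100 reads of Pyy, Insl5 had 40.5 reads for WT and 120.3 for ERAP1+/-, an odds ratio of 2.97 (95% interval 2.60 to 3.39). Gcg differed from Pyy in the same way, with 15.3 and 34.6 reads per 100 reads of Pyy and an odds ratio of 2.27 (95% interval 1.87 to 2.76).

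Against Chga the odds ratio of Insl5 was 1.98 (95% interval 1.65 to 2.36), and against Chgb 2.46 (2.12 to 2.86). It was 2.55 against Tph1 (1.86 to 3.45), 3.31 against Cck (1.66 to 6.35) and 1.79 against Neurod1 (1.02 to 3.02). Gcg came nearer, with an odds ratio of Insl5 to Gcg of 1.31 (95% interval 1.06 to 1.61). For 7 of the 9 pairs with Insl5 the interval lay above 1. The intervals of the other pairs, with Sst (0.805 to 1.78) and with Nts (0.0108 to 3.09), include 1. Chga differed slightly more than Chgb, with an odds ratio of 1.25 (1.05 to 1.49).

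**Figure D3:**
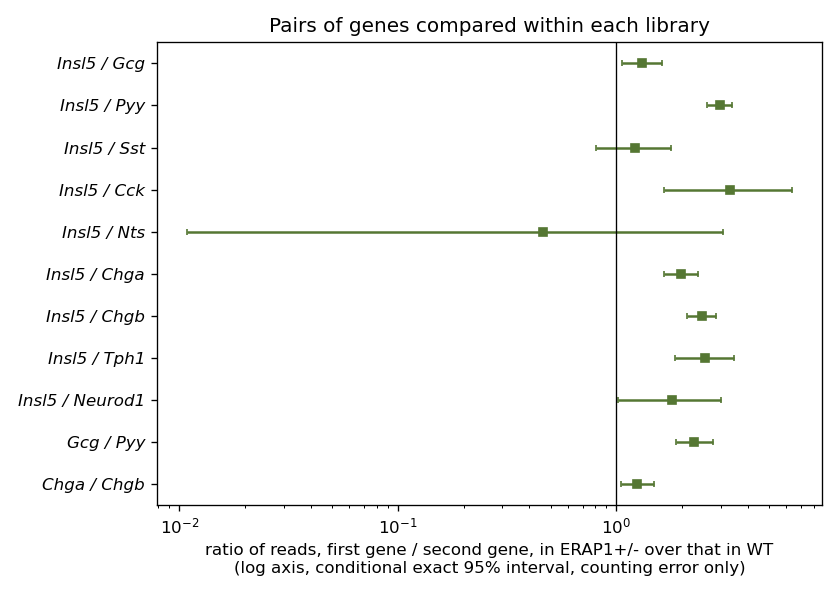
Odds ratios for 11 pairs of genes, the ratio of reads of the first gene to the second in the ERAP1+/- library over the same ratio in the WT library, on a log axis with conditional exact 95% intervals for counting error. Insl5 stands above 1 against 7 of its 9 partners, furthest from 1 with Cck and Pyy, and the pair with Nts rests on 1 WT read.

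The genes that differed most like Insl5 were, by the gap in log2 difference among genes past the level, Mzb1, Clca3b, Ddah1, Nxpe2 and Mptx1. Their log2 differences ran from 2.18 for Mptx1 to 2.36 for Ddah1. With 2 libraries this likeness rests on a single difference per gene.

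Other parts of the enteroendocrine system were described from lists that hold 110 genes, of which 75 had at least 10 reads over both libraries. Of these 75, 57 were higher and 18 lower in the ERAP1+/- library on the TMM scale, and 36 and 39 when the libraries were scaled to goblet markers. Their median log2 difference was 0.41. Only 26 of them reached the level of 15 CPM, and 6 of these were called, all higher under TMM, where 5.34% of all genes past the level were called in either direction and 1.39% as higher. Of the 6, Atoh1, Ffar2, Guca2b and Htr4 reached the level in the ERAP1+/- library alone, so that a gene had to be higher there to pass, and Foxa2 and Vip reached it in both. Granule and prohormone processing genes had the highest median log2 difference of these lists on the TMM scale, 0.67, with 12 of 14 higher. With the goblet scaling 10 of 14 were higher and the median was 0.059. Only 4 genes of this list reached the level, and none of these was called. Resp18 and Scg3, with log2 differences of 1.11 and 1.07, were past 2-fold without reaching the level. Scg2, a granin, had 169 and 394 reads (ratio 1.95, 95% interval 1.62 to 2.35), and Scg3 had 39 and 108 (ratio 2.31, 1.59 to 3.43). Pcsk1, the convertase that frees glucagon-like peptides from proglucagon, had 23 and 48 reads, and its partner Pcsk2 had 26 and 52. Cpe, a carboxypeptidase of the same pathway that many other cells express, had 1321 and 1202 reads and a ratio of 0.760 (0.702 to 0.822).

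Fate regulators were higher for 11 of 14 genes with a median log2 difference of 0.54 on the TMM scale, and for 9 of 14 with a median of 0.13 with the goblet scaling. Atoh1, which commits crypt progenitors to the secretory lineage, had 97 and 310 reads (ratio 2.67, 95% interval 2.12 to 3.39) and was called, as was Foxa2 with 425 and 1038 reads (ratio 2.04, 1.82 to 2.29). Neurog3, the endocrine-specifying factor upstream of Neurod1, had 9 and 24 reads, and the interval of its ratio, 1.00 to 5.45, reaches 1. Insm1 had 15 and 41 reads (ratio 2.28, 1.24 to 4.44). Isl1 went the other way with 150 and 100 reads and a ratio of 0.557 (0.428 to 0.722).

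Among nutrient and mechanical sensors, 9 of 12 were higher on the TMM scale and 5 with the goblet scaling. Ffar2, a receptor for short-chain fatty acids on L cells and leukocytes, was the only one called of the 3 past the level, which it reached in the ERAP1+/- library alone, with 53 and 235 reads and a ratio of 3.70 (95% interval 2.74 to 5.09). The odds ratio of Gcg to Ffar2 was 1.03 (0.715 to 1.47). Ffar2 had the largest difference of the 12 sensors, so this pair does not stand for the list. Ffar4, which binds long-chain fatty acids, had 49 and 116 reads, and Gpbar1, a bile acid receptor, had 2 and 15. Slc5a1, the most read of the list, was lower, with 1273 and 1201 reads and a ratio of 0.788 (0.728 to 0.853). Cacna1c was lower too, with 72 and 50 reads (ratio 0.580, 0.396 to 0.844). Summed over the list, which Slc5a1 dominates, the ratio was 1.00 (0.939 to 1.07).

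Other gut hormone genes were divided, 5 higher and 4 lower of 9, with a median log2 difference of 0.27 that was -0.37 with the goblet scaling. Vip (129 and 348 reads) and Guca2b (58 and 159 reads), a peptide chiefly of neurons and a guanylin-family peptide of epithelial cells, were called as higher. Tac1, made by enterochromaffin cells and by neurons, had 227 and 183 reads and a ratio of 0.673 (95% interval 0.551 to 0.822). Penk was likewise lower, with 146 and 114 reads. For Sct, the secretin gene, 47 and 46 reads gave an interval that includes 1, 0.532 to 1.25.

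On the TMM scale, genes for serotonin and other amines stood closer to no difference than Tph1. Their median log2 difference was 0.32 over 8 genes, 7 of them higher. None of the 4 past the level was called. With the goblet scaling 1 was higher and the median was -0.33, against 0.24 for Tph1. Ddc, which completes serotonin synthesis, had 890 and 1312 reads (ratio 1.23, 95% interval 1.13 to 1.34). The vesicular carrier Slc18a1 had 9 and 13 reads and the serotonin transporter Slc6a4 77 and 121, with intervals that include 1.

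Receptors and clearing enzymes were higher for 11 of 15 genes with a median log2 difference of 0.57 on the TMM scale, and 8 were higher and 7 lower with a median of 0.11 with the goblet scaling. Of the 4 past the level, Htr4, a serotonin receptor, was the one called, with 105 and 278 reads, and it reached the level in the ERAP1+/- library alone. Rxfp4, the receptor of insulin-like peptide 5, had no read in either library, and a count of 0 is compatible with up to 3 reads (0.386 CPM for WT, 0.322 CPM for ERAP1+/-). Glp1r was at 0 in both libraries too. Dpp4, the peptidase that cuts incretins and peptide YY, had 98 and 209 reads (ratio 1.78, 1.39 to 2.29). In the insulin and relaxin family, 1 member other than Insl5 reached the level, and it was not called. Insl6 had 50 and 60 reads and Igf1 317 and 321, and 5 of the 8 other members had no read at all.

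**Figure D4:**
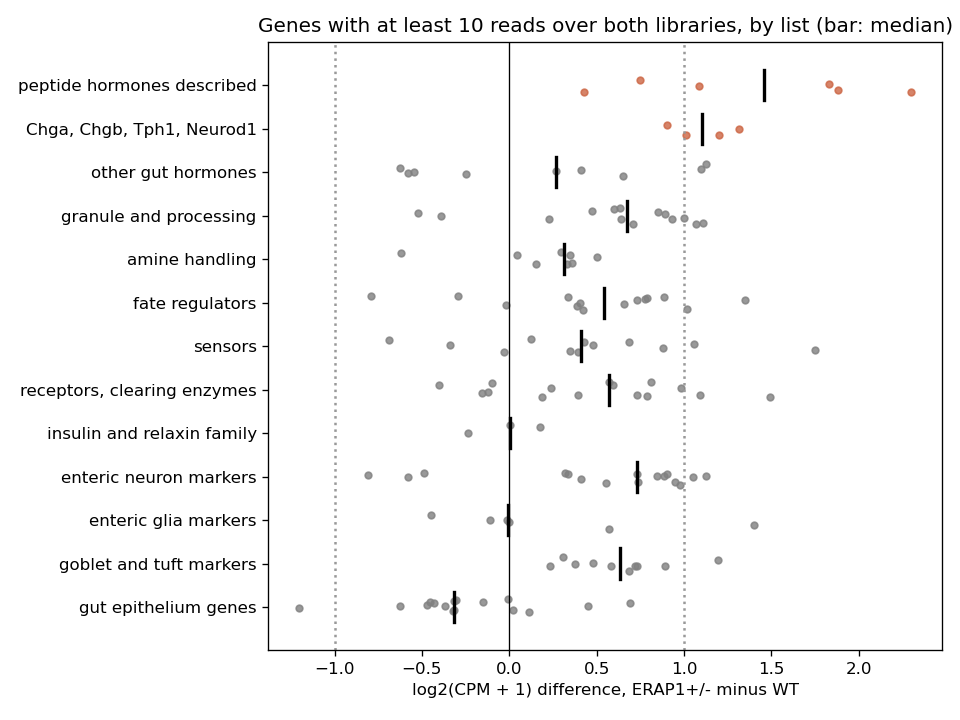
Differences on the log2(CPM + 1) scale, ERAP1+/- minus WT, for genes with at least 10 reads over both libraries, grouped by list, with each list's median as a black bar and dotted lines at 2-fold. The 10 genes described (orange) lie to the right of 0, with medians of 1.46 and 1.11 for the upper rows, and gut epithelium genes have a median of -0.32.

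More cells of a type and more RNA per cell cannot be told apart in such bulk RNA. Other cell types that make some of these transcripts were therefore read in the same libraries. Of 16 enteric neuron markers with at least 10 reads, 13 were higher in the ERAP1+/- library on the TMM scale and 9 with the goblet scaling. Their list summed to 155 CPM for WT and 255 CPM for ERAP1+/-, with Uchl1 at 147 and 356 reads and Elavl4 at 127 and 192. The counting interval of the ratio lay above 1 for 10 of the 16. It lay below 1 for 2, Ret with 41 and 24 reads and Nefm with 75 and 57. The odds ratio of Insl5 to Vip was 2.22 (95% interval 1.75 to 2.80), while that of Chga to Vip was 1.12 (0.873 to 1.44). Vip had the largest difference of the 16 neuron markers, so these pairs do not stand for the list. The summed neuron list had a ratio of 1.65 (1.53 to 1.77), against 2.53 (2.21 to 2.92) for Chga. Enteric glia markers had a median log2 difference of -0.0052, which was 0.089 with the total count and -0.54 with the goblet scaling. The part of neurons in the values of Sst, Cck, Chga and Chgb was not tested.

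The islet hormones Ins1 and Ins2 had no read in either library, and of 9 islet markers 3 had at least 10 reads over both libraries, with Ppy as the most read of them at 57 and 84 reads. Of 8 mast cell markers with at least 10 reads, 5 were lower in the ERAP1+/- library, with Mcpt4 at 34 and 3 reads and Tpsb2 at 50 and 9. The summed level of the mast cell list was 29.1 CPM in both libraries. This equal sum depends on Kit, which other cells use too and which had 72 and 202 of the list's 226 and 271 reads. The counting interval of the ratio lay below 1 for 4 of the 8 markers and above 1 for Kit alone.

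Goblet cells belong to the same secretory lineage. All 7 goblet markers were higher in the ERAP1+/- library under TMM, the total count and the epithelium scaling, with a median log2 difference of 0.72 under TMM. Muc2, the main secreted mucin, had 12020 and 32939 reads and a ratio of 2.29 (95% interval 2.24 to 2.34). Against Muc2 the odds ratio was 1.11 for Chga (0.962 to 1.28), 0.888 for Chgb (0.798 to 0.990) and 0.736 for Pyy (0.680 to 0.797). For Gcg it was 1.67 (1.40 to 2.0) and for Insl5 2.19 (1.96 to 2.44). Relative to Muc2, Insl5 and Gcg were thus higher, the interval of Chga included 1, and Pyy was lower. Muc2 had the largest difference of the 7 goblet markers, so these pairs do not stand for the markers as a set. Summed over the 7, the ratio was 1.62 (95% interval 1.61 to 1.64), against 2.53 for Chga, 2.03 for Chgb and 1.68 for Pyy (1.56 to 1.82).

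Genes of surface colonocytes were lower on the TMM scale, with Car1 at 13814 and 9366 reads and Car4 at 15163 and 8391. Of 11 Hox genes with at least 10 reads, all were lower in the ERAP1+/- library on the TMM scale, with a median log2 difference of -0.42, while 2 were higher with scaling by the total count and 3 with the epithelium scaling. Hoxb13, a distal colon and rectum gene, had 3176 and 2848 reads. Insl5 is known as a gene of the distal gut. The part of the colon that was sampled is not known from the counts, and its part in the hormone differences was not tested.

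**Figure D5:**
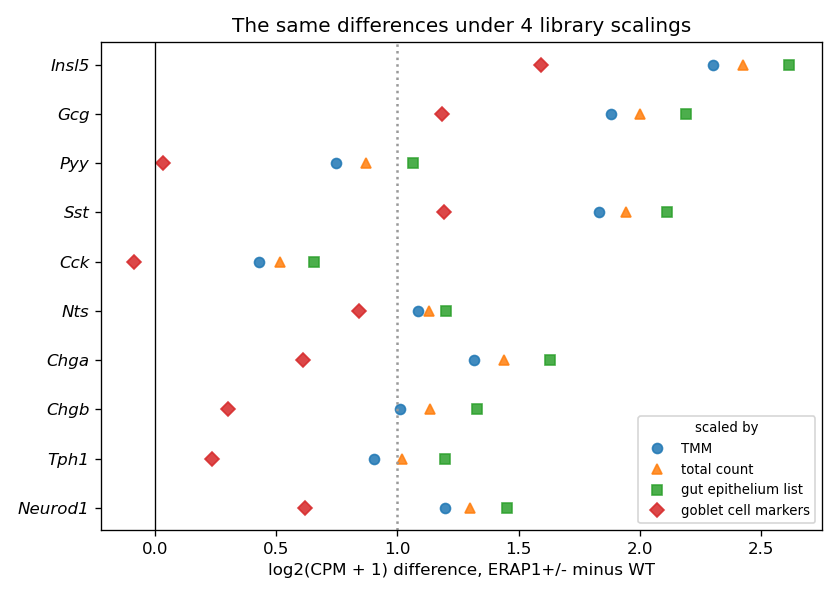
Differences of the 10 genes on the log2(CPM + 1) scale, ERAP1+/- minus WT, under TMM, the total count, a scaling to gut epithelium genes and a scaling to goblet cell markers, with a dotted line at 2-fold. Insl5, Gcg and Sst lie past 2-fold under all 4 scalings. The difference of Cck turns to -0.086 and that of Pyy falls to 0.034 when the libraries are scaled to goblet markers.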

How the data were processed

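Libraries were made with the QuantSeq 3′ kit, so reads come from transcript 3′ ends. The authors deposited whole-number counts of reads per gene symbol, without normalization. The methods name STAR with HTSeq in 1 place and Bowtie2 with RSEM on GRCm38 in another. The processing given in the sample records lists Bowtie2, RSEM and GRCm38, and neither STAR nor HTSeq. Library sizes were multiplied by TMM factors of 0.958 (WT) and 1.04 (ERAP1+/-) from edgeR 4.0.16, run under R 4.3.3, to give CPM and log2(CPM + 1). Ratios carry exact conditional binomial intervals and pairs of genes conditional exact odds ratios (scipy 1.17.1). The steps were tested on simulated data. With 1 library per genotype no test across genes was made.

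The genes and lists were chosen with earlier results of these data known. Named were the 10 genes, the called members of the enteroendocrine lists, some list members with many reads, and the 5 genes nearest to Insl5. Not all list members with many reads were described. Among those left out, Guca2a and Maoa were higher and Sort1 and Gch1 lower in the ERAP1+/- library on the TMM scale. Comparisons with Muc2, Vip and Ffar2, and the naming of list genes with few reads, were added after the values were seen. Gene positions are from GENCODE M21. Alternatives were DESeq2 1.42.0 size factors, other scalings, a pseudocount of 0.1, other filters and a 4-fold threshold.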

Additional observations from a re-analysis of the deposited data

How the results depend on the processing

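The goblet cell marker scaling was an addition made with the values in view. No paired analysis was possible because the libraries are single pools. The 10 genes kept their direction under every scaling and pseudocount tried, except Cck under the goblet scaling (-0.086). The log2 difference of Insl5 was 2.62 with the gut epithelium scaling and 1.59 with the goblet scaling. Of the 10 genes, 5 were called, 1 with a 4-fold threshold (Insl5) and 2 with the goblet scaling (Insl5 and Gcg). Sst had a log2 difference of 1.19 with the goblet scaling, past 2-fold, and was not called there because it fell short of the level. Of the other enteroendocrine genes 6 were called, 11 with the epithelium scaling, 10 with at least 10 reads in 1 or both libraries, 10 with no filter and 0 with a 4-fold threshold, and with the goblet scaling 1 was higher and 6 were lower.

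Over all genes 428 were called (111 higher, 317 lower), 1390 with at least 10 reads in 1 or both libraries, 1434 with no filter, 160 with a 4-fold threshold and 2118 with the goblet scaling (23 higher, 2095 lower). The total count gave 166 higher and 248 lower, and the epithelium scaling 304 and 192. Under these scalings the median log2 difference of genes past the level shifted by 0.12, 0.31 and, for goblet markers, -0.70. The odds ratios of pairs stayed inside their intervals with a Wald form. Depth limits Nts and Cck most.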
